A study of Caenorhabditis elegans with 79 samples.

Results

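The P granule genes deps-1, pgl-1, pgl-3, glh-1, glh-2 and glh-4 of Caenorhabditis elegans were described here as targets of small RNAs. Every row of a 22G-RNA or 26G-RNA class whose name held one of the 6 genes was taken, which gave 46 of 79090 rows over 4 tables. Each of the tables of L4 larvae, of adults and of GFP::RDE-1 under combined RNAi held 14 such rows, among 8903, 8905 and 8905 rows of these classes. The GFP::ALG-3 table held 4 of 1386. In the first 3 tables the 14 rows came to 6 distinct 22G profiles and 4 distinct 26G profiles, because pgl-1, pgl-3, glh-4 and deps-1 each had a 22G row as an ALG target and one in the CSR class with the same value in every library. Each pair is described once, and levels below are per deposited row. In the 4 RDE-1 co-IP libraries, values up to 30 reads came within 0.25 of a whole read in 38.4% to 54.1% of cases for genes with such a pair (73 to 133 values a library), in 87.5% to 88% for genes with a CSR class row only and in 99.3% to 99.4% for piRNAs. An even split of each read between the paired rows would give values midway between whole reads for odd counts. With a tolerance of 0.25 the check cannot tell this from other fractional sharing, so an even split is an assumption. On that assumption a gene's level is given as the sum of its rows wherever genes are compared. The genes glh-1 and glh-2 had a CSR class 22G row only, and no 26G row.

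The 31 libraries in these tables are part of a series of 79 on RNA interference (RNAi) and Argonaute proteins, and all animals were grown at 20 °C. L4 larvae at 54 h without RNAi carried rde-4(syb6665) or were N2, the wild-type strain (n = 3 each). Gravid hermaphrodite adults at 72 h, all fed RNAi against nrfl-1 and oma-1, carried rde-1(ne300) or rde-4(syb6665) or were N2 (n = 3 each). Co-immunoprecipitates (co-IPs) and input lysates came from gravid adults with the allele rde-1(cmp133), which encodes RDE-1 tagged with GFP and 3xFLAG, again under RNAi of both targets, with rde-4(syb6665) or with wild-type rde-4 (n = 2 per group). A further set of co-IPs and inputs came from L4 larvae without RNAi with the allele alg-3(tor141), which encodes ALG-3 with the same tags, with rde-4(syb6665) or with wild-type rde-4 (n = 2 per group). All groups are whole animals, so less RNA per cell and fewer cells of a type cannot be told apart, and a single rde-4 allele stands for loss of that gene throughout. The labels do not say whether replicates were separate cultures, so p-values measure only the spread between these libraries.

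P granules are condensates of RNA and protein beside the nuclei of C. elegans germ cells, where transcripts leaving the nucleus meet Argonaute proteins. PGL-1 and PGL-3 are scaffold proteins of these granules, GLH-1, GLH-2 and GLH-4 are Vasa-like DEAD-box helicases that sit in them, and DEPS-1 is needed for their normal assembly. In this species the 22G-RNAs and 26G-RNAs are copied from messenger RNAs by RNA-dependent RNA polymerases. The 22G-RNAs are secondary siRNAs, and those bound by the Argonaute CSR-1 are antisense to a large share of germline-expressed genes. The 26G-RNAs of the ALG class are bound by ALG-3 and ALG-4, arise during spermatogenesis and lead to 22G-RNAs against the same genes. RDE-4 binds double-stranded RNA and works with the nuclease Dicer, and RDE-1 is the Argonaute that receives the primary siRNAs of RNAi.

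All 6 are protein-coding genes, and their positions are those of the WBcel235 annotation. On chromosome I lie deps-1 (WBGene00022034, 506473 to 509056, + strand, longest transcript 2044 nt in 12 exons) and glh-4 (WBGene00001601, 3727027 to 3731179, + strand, 3747 nt in 9 exons). The same chromosome holds glh-2 (WBGene00001599, 6513928 to 6517507, + strand, 3218 nt in 9 exons) and glh-1 (WBGene00001598, 6854478 to 6857536, + strand, 2769 nt in 7 exons). The gene pgl-1 lies on chromosome IV (WBGene00003992, 6974441 to 6977318, - strand, longest transcript 2423 nt in 9 exons) and pgl-3 on chromosome V (WBGene00003994, 4755979 to 4758587, + strand, longest transcript 2285 nt in 8 exons). An antisense gene, Y65B4BL.7, overlaps deps-1 by 109 nt, and how reads in the overlap were assigned is not given in the sources used here. GLH-1 and GLH-2 are close relatives, as are PGL-1 and PGL-3, so reads that match both members of a pair could have been split between them, and values of these genes are uncertain to that extent.

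Stage markers separated larvae from adults. Depth, inferred from the size of the steps between low values, lay between 18.7 and 22.1 M reads in L4 libraries, between 17.4 and 22.6 M in adult ones and between 12.8 and 22.8 M in the RDE-1 set, which puts a floor of 3 reads at 0.131 to 0.234 RPM (reads scaled to the depth of the library). This floor covers counting error only. The depth of the ALG-3 table is unknown. Mature strands of mir-35 to mir-42, microRNAs of embryos and oocytes, summed to 14296 to 31691 RPM in the adult table and 1008 to 1525 RPM in L4 larvae, and ALG class 26G-RNAs to 31.0 to 92.4 RPM in adults and 384.7 to 9224 RPM in L4 larvae.

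With the 22G rows of a gene summed, glh-1, glh-4 and pgl-1 held the most 22G-RNA per length of transcript at both stages, and deps-1 and glh-2 the least. In N2 larvae glh-1 had 60.0 ± 3.02 RPM per kb of its longest transcript (SD, n = 3), followed by glh-4 with 55.9 ± 1.31, pgl-1 with 46.0 ± 0.989, pgl-3 with 33.4 ± 1.26, deps-1 with 27.9 ± 0.660 and glh-2 with 7.13 ± 0.315 RPM per kb. The replicates of glh-1 and glh-4 overlapped, and those of the other neighbours did not. In N2 adults glh-4 had 80.9 ± 3.53 RPM per kb, pgl-1 78.1 ± 1.87, glh-1 76.6 ± 4.66, pgl-3 54.5 ± 4.22, deps-1 26.6 ± 1.32 and glh-2 16.1 ± 1.24 RPM per kb (SD, n = 3). There the replicates of glh-4, pgl-1 and glh-1 overlapped, and those of the other neighbours did not. Read from a single row of each gene instead, the order in N2 larvae stayed the same, with glh-4 at 27.9 RPM per kb. In N2 adults it changed, with glh-4 at 40.5 RPM per kb below glh-1, and deps-1 at 13.3 below glh-2 at 16.1. The gene deps-1 had close to the same level at both stages, while the means of the other 5 were higher in adults. The tables were normalised separately and the adults were under RNAi, so the stages were not tested against each other.

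In L4 larvae, 22G-RNAs of all 6 genes were higher in rde-4 than in N2. The helicase gene glh-1 had 222.5, 198.7 and 230.1 RPM in rde-4 larvae, against 169.5, 156.5 and 172.1 RPM in N2 larvae. Those of glh-4 were at 143.2, 130.4 and 148.5 RPM in rde-4, against 104.6, 102.2 and 107.2 RPM in N2. Those of glh-2 were at 31.5, 27.3 and 32.6 RPM in rde-4, against 23.6, 21.8 and 23.4 RPM in N2. Every rde-4 library lay above every N2 library for the 3 helicase genes. For the scaffold gene pgl-1 the levels were 70.1, 67.4 and 77.4 RPM in rde-4 and 57.0, 55.6 and 54.6 RPM in N2. For pgl-3 they were 51.8, 47.4 and 53.5 RPM in rde-4 and 36.9, 38.0 and 39.7 RPM in N2. For deps-1 they were 33.7, 34.5 and 35.7 RPM in rde-4 and 28.7, 29.1 and 27.8 RPM in N2. Here too the replicates of the strains did not overlap. The share of all rows without such overlap was not counted, here or in the comparisons below. The separation alone therefore does not set these genes apart from other rows. In the limma test given below, 30.3% of tested CSR class rows and 39.1% of tested ALG target rows were called higher in rde-4 larvae.

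**Figure D1:**
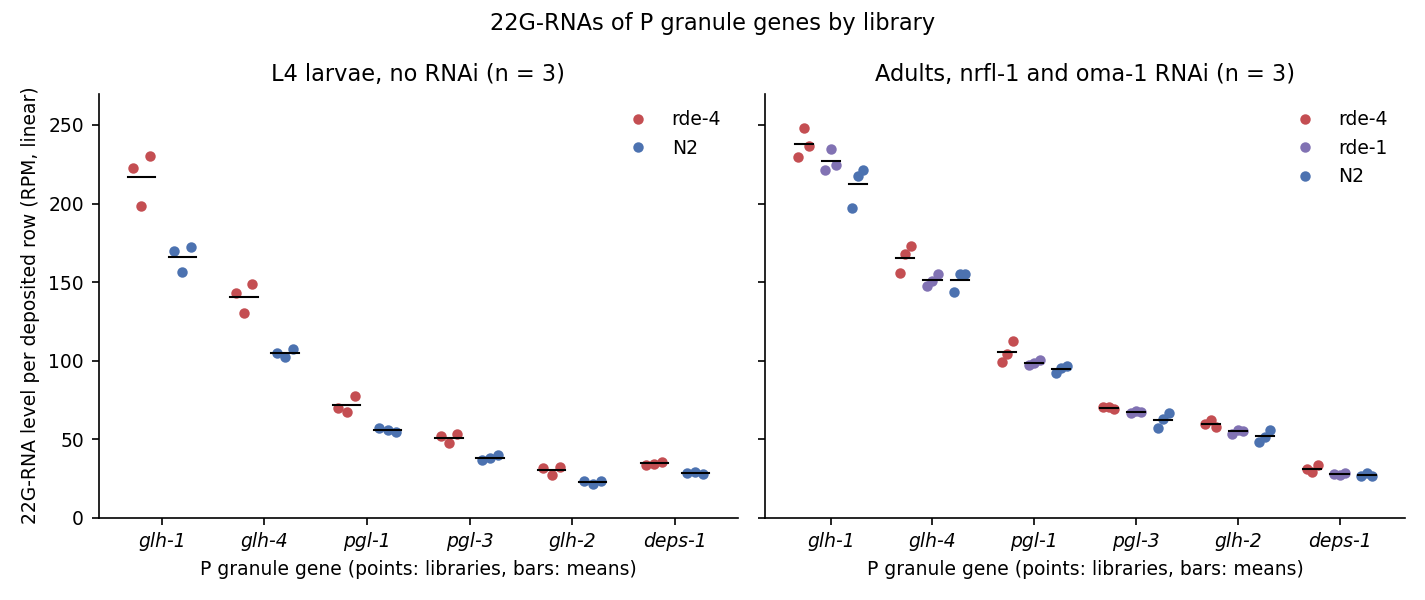
22G-RNA level per deposited row in RPM (linear y axis) of each P granule gene in L4 larvae (left) and RNAi-fed adults (right), with a point for each library and a bar for the mean of 3. In larvae all rde-4 points lie above the N2 points of the same gene, such as 217.1 against 166.0 RPM on average for glh-1, while in adults the strains lie closer together.

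The log2 changes in rde-4 larvae on the log2(RPM + 1) scale were 0.42 ± 0.06 (SE) for glh-4, 0.40 ± 0.07 for pgl-3, 0.39 ± 0.08 for glh-2, 0.38 ± 0.06 for glh-1, 0.35 ± 0.07 for pgl-1 and 0.27 ± 0.07 for deps-1. In ratios of group means these were 1.34 for glh-4 and 1.21 for deps-1. All 10 tested rows of these genes were called higher, at Benjamini-Hochberg (BH) adjusted p between 0.000229 for glh-4 and 0.0112 for deps-1 in limma, where 27.8% of all tested rows were called higher and 34.6% were called in either direction. Leaving out any 1 library kept all 10 calls. The median change over the 1920 tested CSR class rows was 0.19, with quartiles of 0.13 and 0.26. Each of the 6 lay above the upper quartile of that class, deps-1 by less than its SE. Over the 256 tested ALG target rows, which include pgl-1, pgl-3, glh-4 and deps-1, the upper quartile was 0.31, and deps-1 lay below it. As a share of the summed CSR class 22G-RNAs, the CSR class rows of the 6 genes together made up 0.718% ± 0.0250 in rde-4 larvae and 0.640% ± 0.0144 in N2 larvae (SD, n = 3). These shares did not overlap between strains, at 0.703% to 0.747% in rde-4 and 0.627% to 0.656% in N2. The class as a whole summed to 75958 ± 5319 RPM in rde-4 and 65050 ± 919 RPM in N2, and the mir-35 to mir-42 strands to 1059 ± 72.4 RPM in rde-4 and 1455 ± 83.8 RPM in N2 (SD, n = 3). The part of these sums in the result was not tested.

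In adults under RNAi, 22G-RNAs of 5 of the 6 genes were called higher in rde-4 than in N2, by smaller amounts, and none was called between rde-1 and N2. For glh-1 there were 229.3, 247.8 and 236.5 RPM in rde-4 adults and 221.6, 234.6 and 224.4 RPM in rde-1 adults, against 197.4, 217.8 and 221.2 RPM in N2 adults. For glh-2 there were 59.4, 62.4 and 58.0 RPM in rde-4 and 53.7, 56.0 and 55.3 RPM in rde-1, against 48.1, 51.6 and 56.1 RPM in N2. For glh-4 there were 156.0, 168.0 and 172.7 RPM in rde-4 and 147.6, 150.8 and 155.0 RPM in rde-1, against 143.9, 155.4 and 155.5 RPM in N2. The rde-4 libraries of these helicase genes lay above those of N2, for glh-4 by less than 1 RPM at the nearest pair. For pgl-1 there were 99.4, 104.2 and 112.5 RPM in rde-4 and 97.2, 98.8 and 100.5 RPM in rde-1, against 92.1, 95.2 and 96.5 RPM in N2. For pgl-3 there were 70.8, 70.5 and 69.2 RPM in rde-4 and 66.7, 67.9 and 67.0 RPM in rde-1, against 57.2, 63.0 and 66.7 RPM in N2. For deps-1 there were 30.9, 29.1 and 33.5 RPM in rde-4 and 28.0, 27.4 and 28.4 RPM in rde-1, against 26.4, 28.8 and 26.5 RPM in N2. For pgl-1, pgl-3 and deps-1 the rde-4 libraries again did not overlap those of N2, while the rde-1 libraries overlapped them for pgl-3 and deps-1 and not for pgl-1.

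The log2 changes between rde-4 and N2 adults were 0.21 ± 0.06 (SE) for glh-2, 0.19 ± 0.06 for deps-1, 0.17 ± 0.05 for pgl-3, 0.17 ± 0.05 for glh-1 and 0.15 ± 0.05 for pgl-1, at BH-adjusted p between 0.0203 and 0.0384 in limma. For glh-4 it was 0.13 ± 0.05 (BH-adjusted p = 0.0591, limma). In rows, 8 of the 10 tested were called higher, where 28% of all tested rows were called higher and 34.1% in either direction. These calls rested on single libraries, since no row of the 6 genes was called without N2 replicate 1, where 22.6% of all rows were still called in either direction. Without rde-4 replicate 3, 1 row was called beside 23.7% of all rows, without rde-4 replicate 2 there were 2 beside 29.6%, and without N2 replicate 2 there were 3 beside 22.9%. None was called without a filter on low values, beside 4.39% of all rows, and 1 was called with only the rde-4 and N2 libraries in the fit, beside 26.9%. The changes lay near the CSR class median of 0.15, whose quartiles were 0.10 and 0.20, and the share of the 6 genes in the summed CSR class was 0.517% ± 0.0192 in rde-4, 0.526% ± 0.0134 in rde-1 and 0.512% ± 0.0215 in N2 (SD, n = 3). The mir-35 to mir-42 strands summed to 14603 ± 291 RPM in rde-4, 27213 ± 467 RPM in rde-1 and 30407 ± 1144 RPM in N2 adults, and their part in the result was not tested. Between rde-1 and N2 adults, none of the 10 rows was called, where 15.5% of all rows were. The changes ran from -0.0039 ± 0.05 (SE) for glh-4 to 0.11 ± 0.05 for pgl-3, and none of the 6 genes had an unadjusted p under 0.05 in limma. Between rde-4 and rde-1 adults, none of the 10 rows was called, where 30.5% of all rows were. There the differences ran from 0.06 for pgl-3 to 0.15 for deps-1, and those of glh-4 and deps-1 had an unadjusted p under 0.05 in limma. Both mutants were set against the same N2 libraries. Whether the changes in larvae and adults differ was not tested, because the tables were normalised separately.

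**Figure D2:**
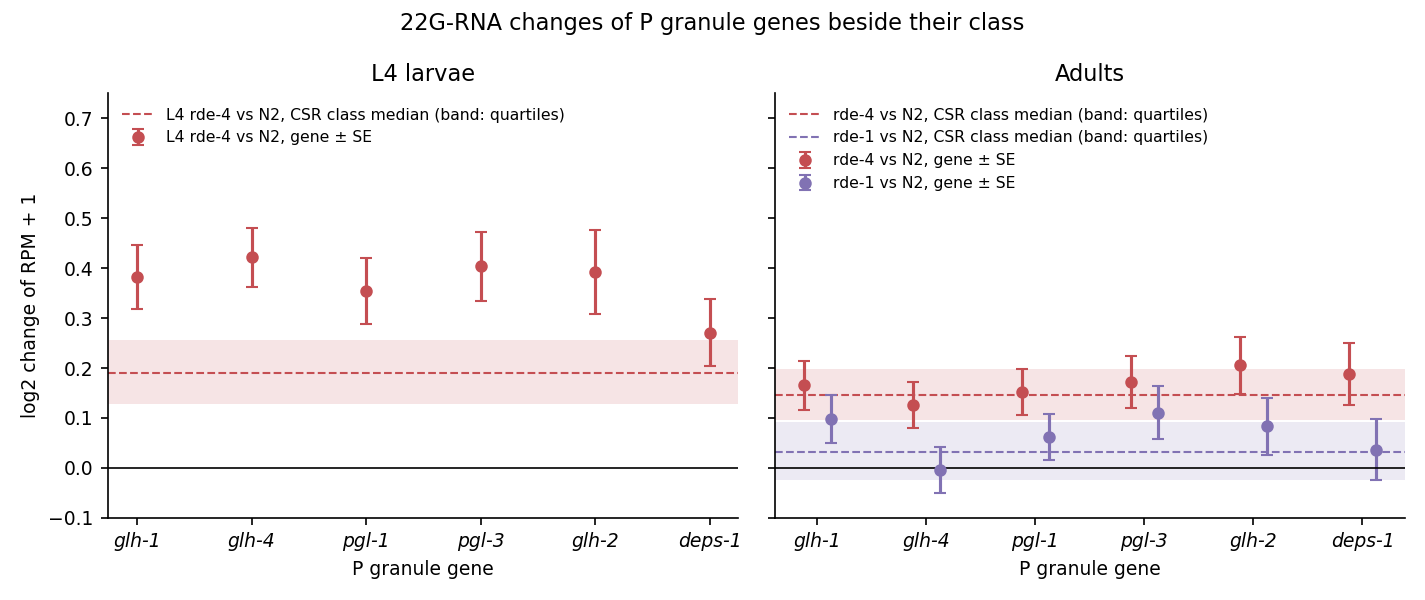
Log2 change of 22G-RNAs (y axis, on the RPM + 1 scale) for each P granule gene ± SE, in L4 larvae (left) and adults (right), with dashed lines at the median of all tested CSR class rows and bands between its quartiles. In larvae the 6 genes lie above the upper CSR class quartile of 0.26, deps-1 by less than its SE. In adults the rde-4 changes of 0.13 to 0.21 lie around the class median of 0.15.

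The GFP::RDE-1 co-IPs asked which small RNAs this Argonaute holds. 22G-RNAs of all 6 genes were lower in the co-IPs than in the inputs, with rde-4(syb6665) and with wild-type rde-4. In the rde-4 mutant, glh-1 had 86.2 and 55.2 RPM in the co-IPs, against 212.5 and 209.1 RPM in the inputs. With wild-type rde-4, glh-1 had 44.4 and 38.3 RPM in the co-IPs, against 196.9 and 205.7 RPM in the inputs. For pgl-3 there were 25.3 and 14.2 RPM in the mutant co-IPs, against 65.5 and 59.7 RPM in the mutant inputs. With wild-type rde-4, pgl-3 had 10.4 and 8.23 RPM in the co-IPs, against 63.6 and 62.4 RPM in the inputs. No co-IP library overlapped an input library for any of the 6 genes in either strain. This stands beside 92.5% of all tested rows called lower in the mutant co-IPs and 95.1% with wild-type rde-4. The mutant co-IP replicate 1 was above replicate 2 for each of the 6 genes.

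In the mutant the log2 changes of co-IP against input were -1.94 ± 0.32 (SE) for deps-1, -1.80 ± 0.28 for pgl-1, -1.80 ± 0.26 for glh-4, -1.80 ± 0.29 for glh-2, -1.67 ± 0.29 for pgl-3 and -1.60 ± 0.24 for glh-1. All 10 rows were called lower in limma with BH adjustment, where 92.5% of all tested rows were, and 95.4% were called in either direction. With wild-type rde-4 the changes were -2.64 ± 0.29 for pgl-3, -2.54 ± 0.26 for glh-4, -2.42 ± 0.28 for pgl-1, -2.40 ± 0.32 for deps-1, -2.26 ± 0.24 for glh-1 and -2.03 ± 0.29 for glh-2. All 10 rows were again called lower in limma with BH adjustment, where 95.1% of all tested rows were, and 99.1% in either direction. The depletion was therefore that of most tested rows in these co-IPs, with CSR class medians of -1.81 in the mutant and -2.37 with wild-type rde-4. MicroRNA rows went the other way, with 112 of 138 called higher in the mutant and 109 of 138 with wild-type rde-4. They summed to 667287 RPM in the mutant co-IPs and 181287 RPM in the mutant inputs. With wild-type rde-4 the sums were 580187 RPM in the co-IPs and 199064 RPM in the inputs. Of the class labelled 23H-RNA, 13 of 64 rows were called higher and 1 lower in the mutant. With wild-type rde-4 all 64 were called higher. This class summed to 2249 ± 1859 RPM in the mutant co-IPs and 656 ± 538 RPM in the mutant inputs (SD, n = 2). With wild-type rde-4 it summed to 101384 ± 54181 RPM in the co-IPs and 639 ± 62.0 RPM in the inputs. The part of these sums in the depletion was not tested. The 6 genes made up 0.588% and 0.615% of the summed CSR class in the mutant co-IPs and 0.545% and 0.566% in the mutant inputs. With wild-type rde-4 they made up 0.571% and 0.572% in the co-IPs and 0.533% and 0.541% in the inputs. The difference in log2 change between the mutant and wild type ran from 0.23 ± 0.41 (SE) for glh-2 to 0.97 ± 0.41 for pgl-3, beside a median of 0.57 over all rows and of 0.57 over the CSR class. None of the 10 rows was called by limma with BH adjustment, where 3.29% of all rows were, and the rows of glh-4 and pgl-3 had an unadjusted p under 0.05. This count rested on 1 library, since without mutant co-IP replicate 2 all 10 rows were called, with differences of 0.57 to 1.37, in a fit that called 77.5% of all rows and 75.5% higher. Between the inputs of the mutant and of wild type, none of the 10 rows was called in limma, where 4.87% of all rows were, and the unadjusted p was above 0.05 for all 6 genes. The input differences ran from -0.07 for pgl-1 to 0.12 for glh-2.

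**Figure D3:**
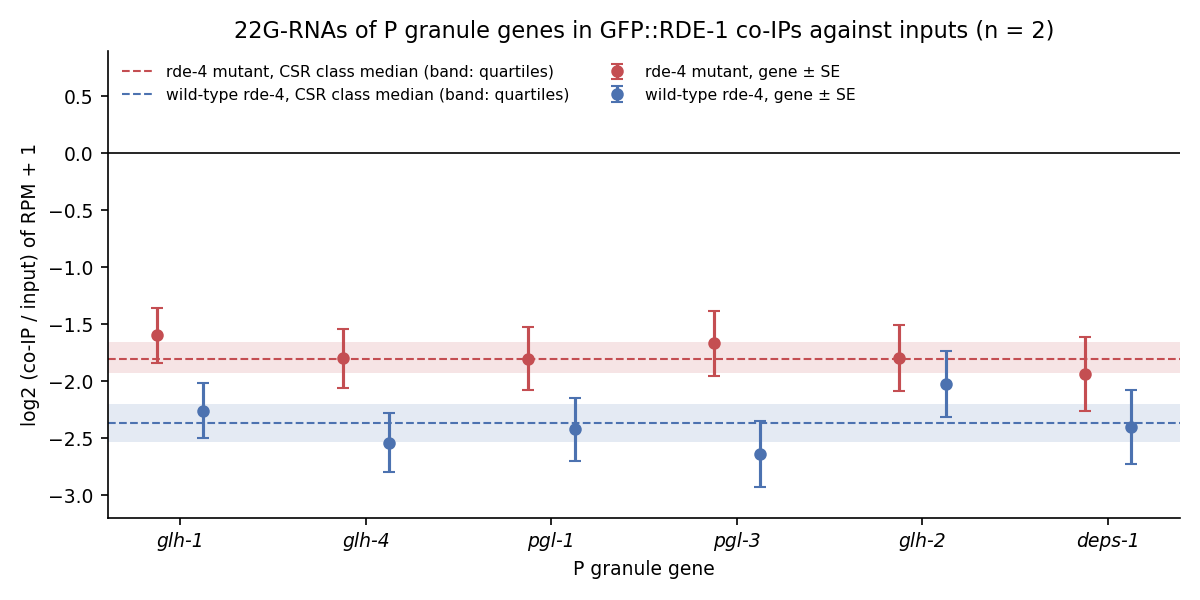
Log2 ratio of GFP::RDE-1 co-IP to input (y axis, on the RPM + 1 scale) for 22G-RNAs of each P granule gene ± SE, in the rde-4 mutant (left point of each pair) and with wild-type rde-4 (right point), with dashed lines at the CSR class median and bands between its quartiles. All points lie below 0 and near the class medians of -1.81 and -2.37.

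The 26G-RNAs of deps-1, pgl-3, glh-4 and pgl-1 were present in N2 larvae and at or near the floor in rde-4 larvae. For deps-1 there were 0.1, 0 and 0 RPM in rde-4 larvae, against 14.3, 12.3 and 13.1 RPM in N2 larvae. For pgl-3 there were 0, 0.27 and 0.14 RPM in rde-4, against 5.76, 6.88 and 6.36 RPM in N2. For glh-4 there were 0.1, 0.09 and 0.07 RPM in rde-4, against 2.27, 2.21 and 2.27 RPM in N2. For pgl-1 there were 0.05, 0.09 and 0.18 RPM in rde-4, against 1.28, 0.9 and 0.69 RPM in N2. No rde-4 library reached an N2 library for any of the 4 genes. Against the highest floor of the rde-4 libraries, 0.155 RPM, deps-1 was at least 85.4-fold lower and glh-4 at least 14.5-fold lower in rde-4. Of the 12 values in rde-4 larvae, 3 were above their library's floor, and of the 12 in N2 larvae all were.

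None of these rows reached the mean of 10 RPM required for the test, so their values are given without one. All 82 rows of the ALG class that reached this mean were called lower in rde-4 larvae by limma with BH adjustment. Their median log2 change was -3.84, and they reached the mean mainly through the N2 libraries. The ALG class was lower as a whole in the same libraries, with 479 ± 81.3 RPM in rde-4 larvae and 8950 ± 279 RPM in N2 larvae (SD, n = 3). The 4 genes made up 0.0782% ± 0.0277 of that sum in rde-4 and 0.254% ± 0.00355 in N2. By RPM in N2 larvae, deps-1 ranked 159th of 1399 rows of the class, pgl-3 463rd, glh-4 985th and pgl-1 1250th. This order differs from that of their 22G-RNAs, where glh-4 was the highest of the 4 and deps-1 the lowest, per row and per length. Per length, N2 larvae had 6.46 ± 0.499 RPM per kb of 26G-RNA for deps-1, 2.77 ± 0.245 for pgl-3, 0.601 ± 0.00925 for glh-4 and 0.395 ± 0.123 for pgl-1 (SD, n = 3), with no overlap between neighbours.

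In adults 26G-RNAs of these genes were mostly not detectable at this depth. Values above the floor numbered 1 of 12 in rde-4 adults, 1 of 12 in rde-1 adults and 3 of 12 in N2 adults. In the RDE-1 set 0 of 8 values were above it in each of the 4 groups.

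In the GFP::ALG-3 libraries, 26G-RNAs of pgl-3, deps-1 and glh-4 were higher in co-IPs than in inputs with wild-type rde-4 in RPM as deposited, a direction that turned for deps-1 and glh-4 when libraries were scaled to equal class sums. In RPM as deposited, the mutant co-IPs held less of all 4 genes than the wild-type co-IPs did, with no overlap. As a share of the class this held for 2 of the 4. The mutant co-IPs had 0.0275% and 0.0118% of the class for deps-1 and 0.0991% and 0.118% for pgl-3, against 0.0776% and 0.0864% for deps-1 and 0.150% and 0.195% for pgl-3 in the wild-type co-IPs. For pgl-1 the share was higher, with 0.0282% and 0.0557% in the mutant co-IPs, against 0.00605% and 0.00920% in the wild-type co-IPs. For glh-4 it was 0.0488% and 0.0545% in the mutant co-IPs, against 0.0448% and 0.0486% in the wild-type co-IPs, with all 4 values close together. For pgl-3 there were 11.8 and 14.4 RPM in the mutant co-IPs, against 7.26 and 8.05 RPM in the mutant inputs. With wild-type rde-4, pgl-3 had 249.3 and 335.4 RPM in the co-IPs, against 30.4 and 29.6 RPM in the inputs. The pgl-3 co-IPs were above their inputs in both strains in RPM as deposited, which scaling to equal class sums turned in the mutant. For deps-1 there were 3.27 and 1.44 RPM in the mutant co-IPs, against 8.14 and 7.82 RPM in the mutant inputs. With wild-type rde-4, deps-1 had 129.3 and 148.4 RPM in the co-IPs, against 20.27 and 26.02 RPM in the inputs. The deps-1 co-IPs were thus below their inputs in the mutant and above them with wild-type rde-4 in RPM as deposited.

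The helicase gene glh-4 showed the same order as deps-1. It had 5.81 and 6.65 RPM in the mutant co-IPs, against 14.5 and 15.9 RPM in the mutant inputs. With wild-type rde-4 it had 74.7 and 83.6 RPM in the co-IPs, against 18.9 and 21.3 RPM in the inputs. For pgl-1, the lowest of the 4, there were 3.36 and 6.8 RPM in the mutant co-IPs, against 8.08 and 9.71 RPM in the mutant inputs. With wild-type rde-4, pgl-1 had 10.1 and 15.8 RPM in the co-IPs, against 8.53 and 8.66 RPM in the inputs. The mean of pgl-1 was below 10 RPM, so it was not tested in RPM as deposited. Its co-IPs were below their inputs in the mutant and above them with wild-type rde-4 on that scale, while with equal class sums its log2 change of co-IP against input was -2.88 in the mutant and turned to -2.33 with wild-type rde-4.

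**Figure D4:**
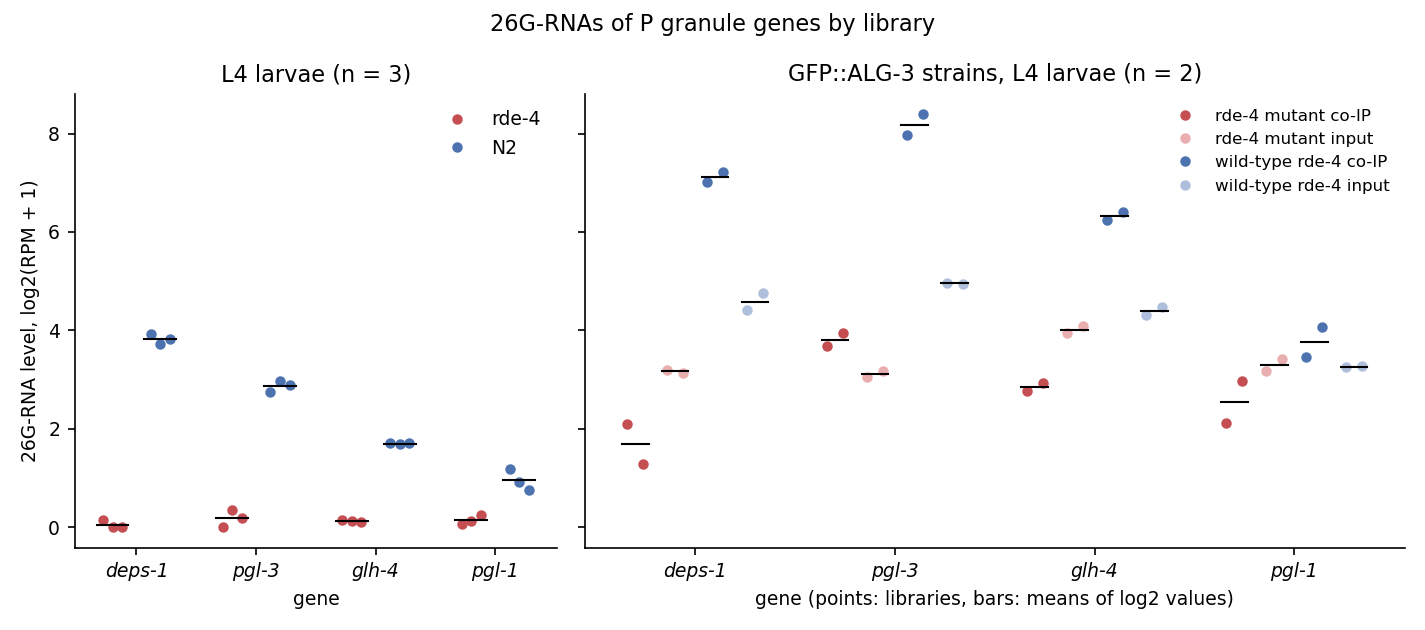
26G-RNA level, log2(RPM + 1) on the y axis, of each P granule gene with a 26G-RNA row, in L4 larvae (left, n = 3) and in co-IPs and inputs of GFP::ALG-3 strains (right, n = 2), with a point for each library and a bar for the mean. The rde-4 larvae lie near 0, and in the ALG-3 set, in RPM as deposited, deps-1 and glh-4 lie below their inputs in the mutant co-IPs and above them in the co-IPs with wild-type rde-4, where scaling to equal class sums turned the direction.

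The main test covered pgl-3, deps-1 and glh-4, and limma with BH adjustment was used for each comparison. All 3 passed the mean of 10 RPM mainly through their wild-type libraries, since the mutant co-IPs averaged 2.36 RPM for deps-1 and 6.23 RPM for glh-4 and the mutant inputs 7.98 RPM for deps-1 and 7.66 RPM for pgl-3. The reads behind such values are unknown in this table. In the rde-4 mutant the log2 changes of co-IP against input were 0.70 ± 0.19 (SE) for pgl-3, -1.48 ± 0.25 for deps-1 and -1.16 ± 0.19 for glh-4, with adjusted p of 0.00261, 5.57e-05 and 3.41e-05. The 1 gene higher and 2 genes lower stand beside 87.4% of all tested rows higher, 2.45% lower and 89.8% called in either direction. With wild-type rde-4 the changes were 3.23 ± 0.19 for pgl-3, 2.54 ± 0.25 for deps-1 and 1.93 ± 0.19 for glh-4, with adjusted p of 3.78e-10, 6.79e-08 and 5.82e-08. All 3 were called higher, where 99.5% of all tested rows were and 99.7% were called in either direction. The class median was 1.59 in the mutant and 2.96 with wild-type rde-4. In the mutant all 3 genes lay below the median. With wild-type rde-4 pgl-3 lay above it, while deps-1 and glh-4 lay below it. The difference between these changes, mutant minus wild type, was -4.02 ± 0.35 (SE) for deps-1, -3.09 ± 0.26 for glh-4 and -2.53 ± 0.27 for pgl-3, with adjusted p of 3.21e-06, 3.21e-06 and 9.44e-06. All 3 were called lower, where 82.3% of all tested rows were, and the median difference over the class was -1.35. In the inputs, pgl-3 changed by -1.84 ± 0.19 and deps-1 by -1.42 ± 0.25 in the mutant against wild type, with adjusted p of 1.75e-07 and 5.71e-05. For glh-4 the input difference was -0.38 ± 0.19, with an adjusted p of 0.0617. The 2 lower calls stand beside 97.5% of all tested rows called lower, with a median of -2.29.

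These directions depend on the scale on which the class is read. The table holds a single class, whose sum averaged 12058 ± 219 RPM in the mutant co-IPs, 2894 ± 43.0 RPM in the mutant inputs, 169171 ± 3684 RPM in the wild-type co-IPs and 18938 ± 2565 RPM in the wild-type inputs (SD, n = 2). Scaling each library to the same class sum moved the median of all tested rows to 0.15 in the mutant and -0.10 with wild-type rde-4 for co-IP against input, and to -0.22 for the inputs. On that scale the co-IP against input change was -3.30 for glh-4, -3.79 for deps-1 and -1.27 for pgl-3 in the mutant, all called lower in limma with BH adjustment. With wild-type rde-4 it was -1.15 for glh-4, called lower, while -0.56 for deps-1 and 0.10 for pgl-3 were not called. The difference between the strains stayed negative and called for these genes, at -3.22 for deps-1, -2.14 for glh-4 and -1.38 for pgl-3. The mutant inputs were then called higher than wild-type inputs, by 2.28 for glh-4, 1.17 for deps-1 and 0.73 for pgl-3. Over all tested rows, the calls on this scale were 341 higher and 279 lower in the mutant and 88 higher and 179 lower with wild-type rde-4, against 962 higher and 27 lower and 1096 higher and 2 lower in RPM as deposited. They were 129 higher and 84 lower for the difference and 226 higher and 363 lower for the inputs, against 0 higher and 906 lower and 0 higher and 1073 lower as deposited.

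The shares of the class show the same in each library. The 4 genes made up 0.204% and 0.240% of the 26G-RNA sum in the mutant co-IPs, against 1.30% and 1.45% in the mutant inputs. With wild-type rde-4 they made up 0.278% and 0.340% in the co-IPs, against 0.412% and 0.456% in the inputs. The mutant inputs thus held the largest share of the 4 groups. Side by side, the 4 genes summed to 37.9 and 41.5 RPM in the mutant inputs of the ALG-3 set and to between 0.25 and 0.45 RPM in the rde-4 larvae above. With wild-type rde-4 the inputs summed to 78.1 and 85.5 RPM and the N2 larvae to between 22.3 and 23.6 RPM, a smaller gap. Why the gap differs between the genotypes was not tested. These sets differ in that only the larvae's libraries were treated with RppH, an enzyme that opens 5′ triphosphate ends to cloning. They also differ in the tag on ALG-3 and in the label of the rows. The larval rows are labelled ALG Class 26G and the ALG-3 rows ALG Class 26G-as, with 1385 gene identifiers shared. The sets were normalised separately, so they were not tested against each other.

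Across the 23 libraries of the L4, adult and RDE-1 tables, the 22G profiles of the 6 genes were compared with each other and with other rows. The root-mean-square difference of log2(RPM + 1), centred within each table, was between 0.0616 and 0.162 for the 15 pairs of members, the lowest for deps-1 with pgl-1 and the highest for pgl-3 with glh-2. Over all 2938 rows compared, the median difference from a member was between 0.157 and 0.186. The widest pair of members lay within that range, so not every pair was closer than a typical row. Only deps-1 had another member among its 2 nearest rows. The rows most like each member were pgl-1 and set-2 for deps-1 (0.0616 and 0.0618), C28A5.2 and chk-2 for pgl-1 (0.0464 and 0.0508) and prg-2 and pod-1 for pgl-3 (0.0595 and 0.0700). They were hmg-12 and cls-2 for glh-1 (0.0545 and 0.0596), toc-1 and cash-1 for glh-2 (0.0792 and 0.0867) and inft-2 and F34D10.4 for glh-4 (0.0465 and 0.0485). The rows share libraries and depth, so these values are a description.

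Other genes of germ granules and of 22G-RNA synthesis were read from a list of 27, of which 22 had 22G-RNA or 26G-RNA rows. In L4 larvae 22G-RNAs of 12 of 18 tested genes were higher in rde-4 and 0 lower in limma with BH adjustment, where 27.8% of all tested rows were higher, with a median change of 0.26 beside 0.16 over all tested rows and 0.39 over the 6 P granule genes. Among CSR class rows 30.3% were higher, with a median of 0.19, and among ALG target rows 39.1%, with a median of 0.21. The 12 were the Argonaute genes wago-1 (0.38), prg-1 (0.28) and wago-4 (0.26), pid-2 (0.43), the RNA-binding protein gene car-1 (0.38), the Z granule helicase gene znfx-1 (0.36), the LOTUS domain gene mip-1 (0.31) and the helicase gene cgh-1 (0.31). The others were the RNA polymerase gene ego-1 (0.27), the Mutator genes mut-7 (0.25) and mut-16 (0.24) and lotr-1 (0.21), which also encodes a LOTUS domain protein. With equal totals 11 of the 18 were higher, and lotr-1 lost its call at 0.18 (BH-adjusted p = 0.108, limma). The P granule helicase gene glh-3 had 0.20 with an adjusted p of 0.0522 in limma and was not called.

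In adults 13 of 19 tested genes of the list were higher and 0 lower in rde-4 against N2, where 28% of all tested rows were higher, with a median change of 0.16 beside 0.17 for the 6 P granule genes. Among CSR class rows 35.0% were higher there, and among ALG target rows 38.9%, each with a median of 0.15. The 13 ran from 0.11 for rde-12 to 0.26 for csr-1 and included cgh-1 (0.25), mip-1 (0.24), mut-16 (0.22), lotr-1 (0.21), prg-1 (0.21), ego-1 (0.20), car-1 (0.19), znfx-1 (0.19), pid-2 (0.16), gls-1 (0.16) and mut-7 (0.13). Between rde-1 and N2 adults, prg-1 was higher by 0.14 and rde-12 lower, with a change of -0.14, and the other 17 were not called, where 15.5% of all tested rows were called. Between rde-4 and rde-1 adults 11 of 19 were higher and 0 lower, beside 22.3% of all tested rows called higher, from 0.14 for znfx-1 to 0.25 for rde-12, also with cgh-1, csr-1, drh-3, ego-1, glh-3, gls-1, mip-1, mut-7 and pid-2. In the RDE-1 co-IPs all 18 tested genes were lower than in the inputs, with medians of -1.84 in the mutant and -2.55 with wild-type rde-4, where 92.5% of all tested rows were lower in the mutant and 95.1% with wild-type rde-4. Between the strains 0 of 18 were called for that change, where 3.29% of all rows were, or for the inputs, where 4.87% were.

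Of this list, 4 genes had tested 26G-RNAs in the ALG-3 table. In the mutant, the co-IP against input change was 1.24 for the translation factor gene ife-1 and 0.98 for csr-1, both higher, and -1.35 for prg-1, which was lower, while lotr-1 at -0.40 was not called in limma, beside 87.4% of all tested rows higher and 2.45% lower. With wild-type rde-4 all 4 were higher, by 2.89 for ife-1, 2.49 for csr-1, 1.91 for lotr-1 and 1.32 for prg-1, beside 99.5% of all tested rows higher. The mutant minus wild type difference was called lower for all 4, at -2.67 for prg-1, -2.31 for lotr-1, -1.65 for ife-1 and -1.51 for csr-1, beside 82.3% of all tested rows lower. In the inputs ife-1 (-3.11) and csr-1 (-0.64) were lower in the mutant, while prg-1 and lotr-1 were not called, beside 97.5% of all tested rows lower. These values are in RPM as deposited. With equal class sums, where wago-1 also passed the filter, all 5 genes were lower in the mutant co-IPs than in their inputs, 3 of 5 were lower and 0 higher with wild-type rde-4, and the difference was called lower for prg-1 (-1.70) and lotr-1 (-1.38) alone. On that scale the mutant inputs were higher for 4 of the 5 and lower for ife-1 (-0.68).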

How the data were processed

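Small RNA libraries of whole larvae or adults, and of Argonaute co-IPs, were sequenced. Per the labels, RNAs of 16 to 30 nt were purified, and all but the ALG-3 libraries were treated with RppH. The authors deposited levels in RPM, made with the tinyRNA pipeline per the labels' series design text, and this unit was inferred from the values, which the labels do not name. Its version, settings, annotation and genome build, and how reads matching several genes were counted, are not given in the sources used here. Of 8 tables, 4 were used here, with all 31 columns assigned from their headers and 0 unassigned.

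Rows whose mean over a table's libraries reached 10 RPM were tested on log2(RPM + 1) with limma (version 3.58.1, R version 4.3.3), whose moderated variances followed the trend with the mean. All groups of a table entered 1 fit, tables were never tested against each other, and changes were called at a BH-adjusted p under 0.05 over all tested rows. No count model was used, since the values are normalised. Fits were tested on simulated data. Whether low values were whole reads was checked for values up to 30 reads within 0.25 of a read, a check chosen after seeing the data. Gene positions and lengths came from the WBcel235 annotation and only serve to place genes and to scale levels to length.

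The 6 genes, the lists and the tests were chosen with earlier results of these data known. Named genes were all rows of the 6 genes, the 2 rows most like each, and listed germ granule genes that passed a test. The alternatives were no minimum or 1 RPM, a pseudocount of 0.1, equal totals, no trend, the replicate number as a block, only the groups compared, each library left out in turn, and, chosen after seeing the data, identical rows counted once.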

Additional observations from a re-analysis of the deposited data

Results flagged for a closer look

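The change of 26G-RNAs between GFP::ALG-3 co-IP and input differed between the rde-4 mutant and wild-type rde-4 for all 3 P granule genes tested, by an interaction term in limma. The log2 difference was -4.02 for deps-1, -3.09 for glh-4 and -2.53 for pgl-3, at BH-adjusted p of 3.21e-06, 3.21e-06 and 9.44e-06, in a table where 82.3% of all rows had a called fall. All 3 passed the mean of 10 RPM mainly through their wild-type libraries, with mutant co-IP means of 2.36 RPM for deps-1 and 6.23 RPM for glh-4 and a mutant input mean of 7.66 RPM for pgl-3, at an unknown depth. For deps-1 and glh-4 the co-IPs were below their inputs in both mutant replicates and above them in both replicates with wild-type rde-4, in RPM as deposited, while scaling to equal class sums put glh-4 and deps-1 below their inputs in wild type too and kept the 3 differences called, at -3.22 for deps-1, -2.14 for glh-4 and -1.38 for pgl-3.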

How the results depend on the processing

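Counting each pair of identical rows once gave 6 calls for rde-4 against N2 larvae, 5 for rde-4 against N2 adults and 6 for each RDE-1 co-IP against input. For rde-4 against N2 adults, 8 rows were called, 0 without a filter on low values, 1 with only the 2 groups compared and 0 to 6 with a library left out. For rde-1 against N2 adults leaving out a library gave 0 to 2 calls, the 2 being the rows of pgl-3 without N2 replicate 3. For rde-4 against rde-1 adults it gave 0 to 2. With the replicate number as a block that comparison had 2 calls, both of glh-4, glh-4 was called in rde-4 against N2 adults (adjusted p of 0.0209 in limma) and in the ALG-3 inputs (0.0486), and deps-1 lost its call in rde-4 against N2 adults (0.0628), and the block changed no other call. Same-numbered libraries deviated with correlations of -0.471 to 0.297, and libraries of different numbers reached 0.537 in adults. In groups of 2 libraries the correlations of same and different numbers mirror each other by construction. These values therefore cannot decide whether the numbers pair libraries, and the labels do not say. The RDE-1 difference in enrichment had 0 to 10 calls with a library left out. Scaling the ALG-3 table to equal totals, where pgl-1 passed the filter, gave 4 calls for the inputs. It reversed glh-4 (-1.15), deps-1 (-0.56) and pgl-1 (-2.33) for co-IP against input with wild-type rde-4, pgl-3 (-1.27) in the mutant, and the inputs of glh-4 (2.28), pgl-3 (0.73) and deps-1 (1.17), and it ended the call of pgl-3 (0.10) with wild-type rde-4. By its construction this scaling removes the change of the class as a whole. Signs also changed for uncalled values with a library left out, with ranges of -0.041 to 0.015 for glh-4 in rde-1 adults and -0.11 to 0.57 for the glh-2 difference in RDE-1 enrichment. In the RDE-1 inputs the ranges were -0.10 to 0.11 for glh-4, -0.18 to 0.044 for pgl-1, -0.077 to 0.054 for pgl-3 and -0.070 to 0.027 for deps-1. Of 781 recomputed values for single genes, 706 kept direction and side of the threshold, and 17 changed direction. Another 31 lost a call, 30 of these in rde-4 against N2 adults. The remaining 27 were called without a call in the main test. They include 7 values of 26G-RNAs in rde-4 against N2 larvae, which the main filter left untested and a lower or no filter let in. For RDE-1 co-IPs against inputs, the median over all rows was -1.96 with equal totals and -1.56 as deposited in the mutant, and -2.54 with equal totals and -2.13 as deposited with wild-type rde-4. Where no cause is given, the cause was not tested. Groups of 2 or 3 libraries and levels near the floor of 3 reads limit the 26G values, and intervals for the ALG-3 table cannot be given because its depth is unknown.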
